A study of Mus musculus with 6 samples.

Results

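The autophagy machinery genes were taken as every symbol of the count table that begins with Atg followed by a number, together with 20 genes named one by one for the initiation kinase, the lipid kinase, the ATG8 proteins and the cargo receptors. The rule found 38 genes among the 25189 symbols of the table, and it used no measured value. The members, and the lists used below, were still chosen with earlier results of these data known. The 6 RNA-seq libraries are labelled as kidney, from C57BL/6 mice that were male and wild type (WT). They were taken at day 2 of ischaemia-reperfusion (I/R), in which the blood supply of the kidney is stopped and then restored. Of these, 3 libraries came from I/R alone, and 3 came from I/R with chemerin-9 (C9), a short peptide from the end of the adipokine chemerin that activates its receptor. All groups shared the injury, and no library from an uninjured kidney was analysed here. The labels state neither a dose of the peptide nor pooling of animals. The treated columns of the table are named IC, and reading that as I/R plus C9 is what ties them to the treated samples.

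Autophagy delivers cytoplasm to the lysosome inside a membrane vesicle, the autophagosome. A kinase complex around ULK1 starts the process, a lipid kinase complex around Beclin 1 marks the membrane, ATG9 and ATG2 supply lipid, and enzymes related to those of ubiquitin attach ATG8 proteins (LC3 and GABARAP) to it. Cargo receptors such as p62 bind both ATG8 and the cargo. In the kidney, autophagy is known for protecting tubule cells after injury, and its flux cannot be read from RNA levels, since many of these proteins are regulated by phosphorylation and by their own breakdown.

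With chemerin-9, most of the machinery was lower and a small part of the conjugation system was higher. Of the 38 genes, all of which passed the filter on low counts, 23 fell and 4 rose in edgeR's quasi-likelihood test at a Benjamini-Hochberg adjusted p under 0.05. The number that rose was 2 with DESeq2, with no filter on low counts, after removal of the trend with GC content and length, and without replicate 1 or replicate 2 of either group, where Atg3 and Atg5 still passed. Among all 14184 genes tested, 51.7% passed, 26.1% as lower and 25.6% as higher. The members' median log2 fold change was -0.28, against -0.0037 over all tested genes. Calcoco1 and Gabarapl1 fell to 0.489 and 0.495 of their I/R level, and Atg3 rose 1.71-fold. At a change of at least 1.2-fold with the same test, 19 members were lower and 2 were higher, where 19.2% and 18.7% of all tested genes were. The values of the groups did not overlap in 30 of the 38 members, 26 lower and 4 higher with chemerin-9, against 58.5% of all tested genes, 29.2% lower and 29.3% higher. Counts of the members made up 0.298% to 0.301% of all counts in the I/R libraries and 0.255% to 0.260% with chemerin-9.

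**Figure D1:**
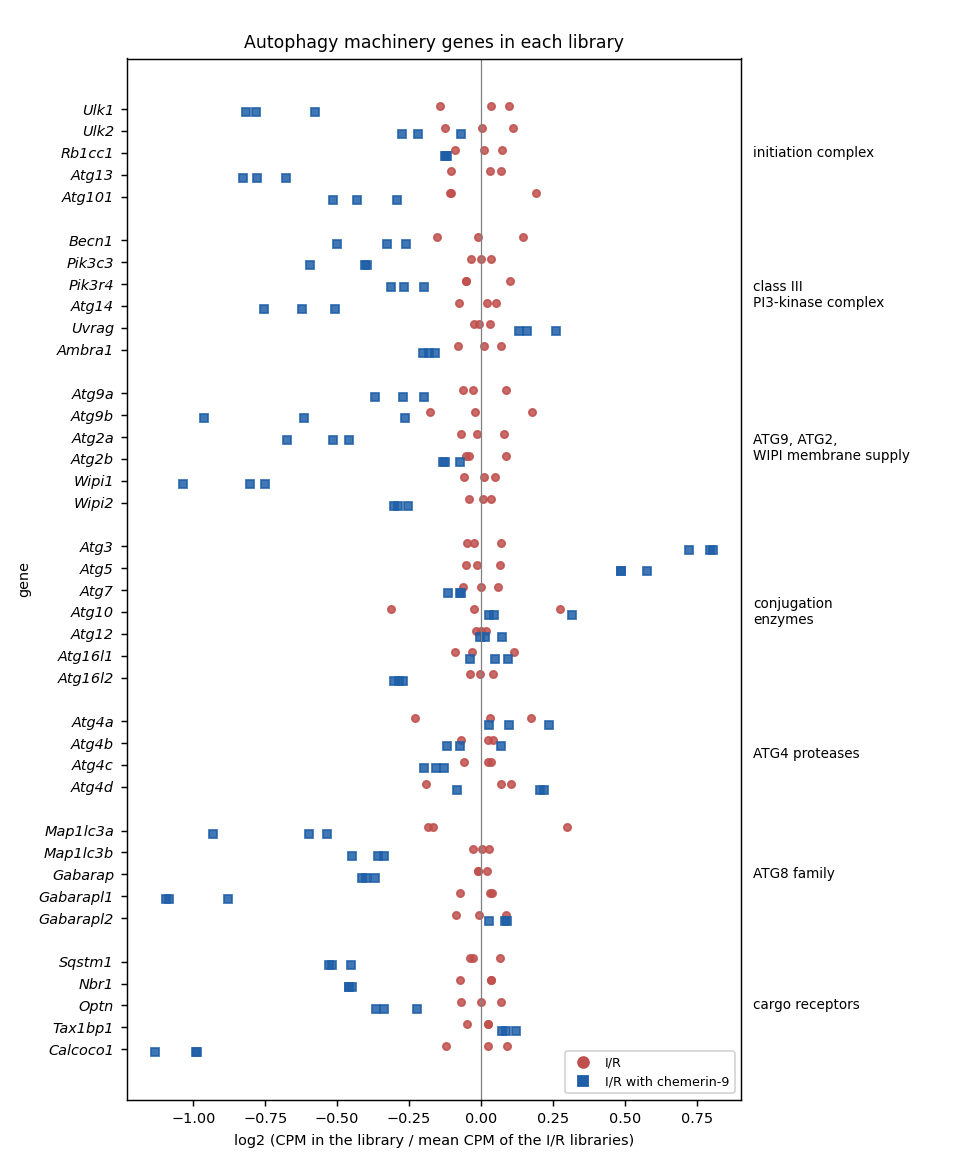
Level of each of the 38 members in each library, as the log2 of its CPM over the mean of the 3 I/R libraries, with circles for I/R and squares for I/R with chemerin-9 and the roles named at the right. The squares lie left of the circles for 26 genes and right of them for 4, and Atg3 and Atg5 stand out to the right.

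The libraries held 11217252 to 16938301 counts. Levels below are counts per 1000000 counts of a library (CPM), with library sizes adjusted by TMM, and ± gives the SD over 3 libraries. Nothing in the labels says that libraries stand for separate mice, and p-values then cover only the spread among these libraries, which may be technical. Markers of the labelled tissue were low: of 10 nephron markers, the 6 with a row summed to 21.8 to 23.2 CPM in I/R and 19.2 to 24.2 CPM in the treated libraries, most of it Aqp1, and Cdh16 was at 0 in every treated library. Of 10 vessel and blood cell markers, the 5 with a row summed to 1.76 to 3.19 and 2.18 to 3.46 CPM, with Hbb-bs at 0 in every library. The 8 fibroblast and dividing cell markers summed to 5728 to 5766 CPM in I/R and 5033 to 5081 CPM in the treated libraries. Of these 8, Vim, Acta2, Col1a2 and Mki67 passed as lower, Pdgfrb as higher (from 35.1 ± 2.75 to 49.2 ± 1.98 CPM), and Col1a1, Top2a and Ccnb1 did not pass. Vim went from 1366 ± 38.3 to 853 ± 21.8 CPM. The share of 18S RNA was 0.381% to 0.517% and 0.261% to 0.306%, and that of mitochondrial genes 2.81% to 2.94% and 2.56% to 2.64%. With both left out, 23 members were again lower and 4 higher. What part the marker genes have in the results was not tested. The marker levels do not bear out the label of kidney, and which cells the libraries hold is not known. In bulk RNA, fewer cells of a type and less RNA per cell cannot be told apart.

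All 5 genes of the initiation complex passed as lower, with a median log2 fold change of -0.41. Ulk1, the kinase that AMPK and mTORC1 control, was at 56.7, 54.4 and 48.1 CPM in the I/R libraries and 35.6, 30.1 and 30.8 CPM with chemerin-9. Every treated library lay below every I/R library, and Ulk1 fell from 53.0 ± 4.46 to 32.2 ± 2.94 CPM (-0.72 on the log2 scale, SE 0.079, adjusted p = 2.5e-06; chromosome 5, 110784488 to 110810097, minus strand, GRCm38, ENSMUSG00000029512). Atg13, the adaptor that holds the kinase in the complex, was at 40.5, 39.4 and 35.9 CPM in the I/R libraries and 22.5, 21.7 and 24.1 CPM with chemerin-9. The groups were again separate, and the fall was of 0.76 on the log2 scale (standard error 0.076, adjusted p = 1.1e-06). Atg101, which stabilises ATG13, held 45.9, 45.8 and 56.4 CPM in the I/R libraries and 36.6, 40.3 and 34.6 CPM with chemerin-9. I/R replicate 3 was the highest, and Atg101 fell by 0.41 (adjusted p = 9.0e-04). The fall was of 0.30 without that library and of 0.27 after the GC and length trend was removed.

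The other kinase and the scaffold of the complex moved little. Ulk2, the paralogue of Ulk1, went from 58.5 ± 4.78 to 51.5 ± 3.82 CPM (-0.18 on the log2 scale, SE 0.070, adjusted p = 0.039) with overlapping groups. Rb1cc1, which encodes the large scaffold FIP200, went from 188 ± 10.7 to 173 ± 0.402 CPM (-0.12 on the log2 scale, SE 0.043, adjusted p = 0.029). Neither call was stable. That of Ulk2 was lost with upper quartile scaling (adjusted p = 0.053), with DESeq2 (0.073) and without I/R replicate 1 (0.16), I/R replicate 2 (0.077), chemerin-9 replicate 2 (0.15) or chemerin-9 replicate 3 (0.12), over a range of adjusted p from 0.0016 to 0.16 across its alternatives. That of Rb1cc1 was lost with upper quartile scaling (0.050) and without I/R replicate 1 (0.13), I/R replicate 2 (0.068), chemerin-9 replicate 1 (0.063), chemerin-9 replicate 2 (0.062) or chemerin-9 replicate 3 (0.065), over a range of 5.9e-06 to 0.13. After removal of the trend of fold changes with GC content and transcript length, the log2 fold change of Rb1cc1 was -0.29, more than 1.5 times the value above.

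In the class III lipid kinase complex, which makes the phosphatidylinositol 3-phosphate that marks the forming membrane, 5 of 6 genes fell and 1 rose. Pik3c3, the catalytic subunit VPS34, was at 49.2, 50.4 and 48.1 CPM in the I/R libraries and 37.3, 37.4 and 32.7 CPM with chemerin-9. The groups were separate, with a fall of 0.46 on the log2 scale (standard error 0.067, adjusted p = 3.8e-05). Atg14, the subunit that directs the complex to autophagosome formation, had 18.2, 17.8 and 16.7 CPM in the I/R libraries and 12.4, 11.4 and 10.4 CPM with chemerin-9 and fell by 0.63 (standard error 0.10, adjusted p = 1.4e-04). Becn1, which encodes Beclin 1, was at 77.6, 70.4 and 86.6 CPM in the I/R libraries and 62.3, 55.3 and 65.3 CPM with chemerin-9. Its I/R libraries were spread widely, yet the lowest of them was above the highest treated library, and Becn1 fell from 78.2 ± 8.14 to 60.9 ± 5.13 CPM (-0.36 on the log2 scale, SE 0.075, adjusted p = 9.1e-04). The exons of Becn1 share 3104 bases, or 43.9% of their length, with those of Cntd1 on the opposite strand, which had 81 counts in all libraries together against 5763 for Becn1.

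Pik3r4, the regulatory subunit VPS15, fell from 35.3 ± 2.18 to 29.5 ± 1.19 CPM (adjusted p = 0.0081). Uvrag, which takes the place of ATG14 in the form of the complex that serves endosomes and late autophagosomes, went the other way, from 31.1 ± 0.617 to 35.3 ± 1.70 CPM (0.18 on the log2 scale, SE 0.068, adjusted p = 0.033), with every treated library above every I/R library. The difference between Uvrag and Atg14 was not itself tested. Uvrag shares 17.6% of its exon length with Gm45187 on the opposite strand, which has no row in the count table. DESeq2 did not call Uvrag (adjusted p = 0.14), and the call was also lost with no filter on low counts (0.077), after removing the GC and length trend (0.064) and without I/R replicate 1 (0.094), I/R replicate 2 (0.078), chemerin-9 replicate 1 (0.060) or chemerin-9 replicate 2 (0.14). Ambra1, which links Beclin 1 to the cytoskeleton and to ubiquitin ligases, went from 43.3 ± 2.24 to 38.2 ± 0.567 CPM (-0.18 on the log2 scale, adjusted p = 0.027). Its call was lost with DESeq2 (0.094) and without I/R replicate 1 (0.10), I/R replicate 2 (0.060), chemerin-9 replicate 1 (0.054) or chemerin-9 replicate 3 (0.074). Across their alternatives the adjusted p ranged from 0.023 to 0.14 for Uvrag and from 0.0090 to 0.10 for Ambra1.

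Of the 6 genes for lipid supply and its docking, 4 fell and none rose. Wipi1, a reader of phosphatidylinositol 3-phosphate that marks the forming membrane, had the largest fall among these 6 that passed. It was at 39.7, 36.9 and 38.7 CPM in the I/R libraries and 22.0, 22.8 and 18.7 CPM with chemerin-9, which are separate groups, and fell from 38.4 ± 1.44 to 21.2 ± 2.17 CPM (-0.86 on the log2 scale, SE 0.082, adjusted p = 6.5e-07; chromosome 11, 109573331 to 109611967, minus strand, GRCm38, ENSMUSG00000041895). Wipi2, its paralogue, which recruits the conjugation enzymes, was at 195, 188 and 198 CPM in the I/R libraries and 159, 163 and 157 CPM with chemerin-9 and fell by 0.28 (adjusted p = 1.8e-05). Atg2a, a channel that moves lipid into the growing membrane, held 41.0, 39.5 and 43.8 CPM in the I/R libraries and 29.0, 25.9 and 30.1 CPM with chemerin-9. Its groups did not overlap, and it fell by 0.55 (standard error 0.074, adjusted p = 2.2e-05). Atg9a, the scramblase carried on vesicles, held 46.7, 50.5 and 45.6 CPM in the I/R libraries and 36.9, 41.5 and 39.4 CPM with chemerin-9 and fell by 0.27 (adjusted p = 0.0029). Part of the exons of Atg9a, 1832 bases, is shared with the same-strand transcript Gm29253, so its counts are uncertain.

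Atg2b and Atg9b did not pass. Atg2b was at 109.7 ± 5.94 and 102 ± 2.25 CPM (log2 fold change -0.11, 95% interval -0.21 to -0.0091, adjusted p = 0.064). It passed as lower without I/R replicate 1 (0.044) or I/R replicate 3 (0.022) and after removing the trend with GC and length (0.0044), over a range of adjusted p from 0.0044 to 0.27. Atg9b, the paralogue of Atg9a known from few tissues, was near the floor at 2.04 ± 0.254 and 1.36 ± 0.325 CPM, and its 95% interval on the log2 scale was -1.20 to 0.039.

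The conjugation enzymes held the 2 members that rose by at least 1.2-fold. Atg3, the E2-like enzyme that passes ATG8 to the membrane lipid, was at 29.3, 31.2 and 28.8 CPM in the I/R libraries and 49.2, 52.0 and 51.6 CPM with chemerin-9. All treated libraries were far above all I/R libraries, and Atg3 rose from 29.7 ± 1.29 to 50.9 ± 1.56 CPM (0.78 on the log2 scale, SE 0.063, adjusted p = 1.1e-07; chromosome 16, 45158785 to 45188538, plus strand, GRCm38, ENSMUSG00000022663). Atg5, which joins ATG12 to form the part of the ligase that places ATG8, held 41.9, 39.7 and 38.6 CPM in the I/R libraries and 59.7, 56.2 and 56.2 CPM with chemerin-9. It rose from 40.1 ± 1.68 to 57.3 ± 2.04 CPM (0.52 on the log2 scale, SE 0.059, adjusted p = 3.7e-06; chromosome 10, 44268358 to 44364291, plus strand, GRCm38, ENSMUSG00000038160), again with separate groups. Both calls held in each of the 17 alternatives run.

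None of the partners of these enzymes passed as higher. Atg7, the E1-like enzyme that activates ATG8 and ATG12, was at 28.0, 26.8 and 29.2 CPM in the I/R libraries and 25.9, 26.6 and 26.7 CPM with chemerin-9. It did not pass (log2 fold change -0.086, 95% interval -0.24 to 0.070, adjusted p = 0.35). Atg12, the ubiquitin-like partner of ATG5, was at 76.01 ± 0.946 and 77.5 ± 2.11 CPM, with a 95% interval of -0.070 to 0.13 on the log2 scale. Atg16l1, which anchors the ligase at the membrane, did not pass either (interval -0.11 to 0.18), nor did Atg10, the E2-like enzyme for ATG12 (interval -0.40 to 0.65, at a level of 2.31 ± 0.468 CPM in I/R). Atg16l2, a paralogue known for little part in bulk autophagy, held 35.8, 34.9 and 36.9 CPM in the I/R libraries and 29.5, 29.7 and 29.1 CPM with chemerin-9 and fell by 0.29 (standard error 0.066, adjusted p = 0.0019). In all, 2 of the 7 conjugation genes rose, 1 fell and 4 did not pass.

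Promoter windows, 250 bases before to 50 after the start site, were found for 32 of the 38 members in RefSeq (GRCm38.p6). Those of Atg3 and Atg5, the only members that rose by 1.2-fold or more, both hold the palindrome CACGTG, the core of the E-box that MiT/TFE and USF-type factors are known to bind. Uvrag and Tax1bp1, which passed as higher with smaller changes, do not hold it, so 2 of the 4 genes called higher do. Of the other members with a window, Atg7 and Atg14 hold it, so 4 of 32 do, against 7.15% of all 32851 windows and 8.09% of the 27025 genes with one. The windows of Atg3 and Atg5 are shown for that letter match and Atg14 as the gene with the match that fell, with CACGTG in capitals and each window written 5′ to 3′ on the gene's strand.
Atg3 (chr16:45158579-45158878, plus strand): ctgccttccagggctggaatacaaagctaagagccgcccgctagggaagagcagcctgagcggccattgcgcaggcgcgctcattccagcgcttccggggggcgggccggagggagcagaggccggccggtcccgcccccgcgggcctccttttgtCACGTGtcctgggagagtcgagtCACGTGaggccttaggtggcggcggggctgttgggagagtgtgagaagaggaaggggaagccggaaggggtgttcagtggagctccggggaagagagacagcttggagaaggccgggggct
Atg5 (chr10:44268089-44268388, plus strand): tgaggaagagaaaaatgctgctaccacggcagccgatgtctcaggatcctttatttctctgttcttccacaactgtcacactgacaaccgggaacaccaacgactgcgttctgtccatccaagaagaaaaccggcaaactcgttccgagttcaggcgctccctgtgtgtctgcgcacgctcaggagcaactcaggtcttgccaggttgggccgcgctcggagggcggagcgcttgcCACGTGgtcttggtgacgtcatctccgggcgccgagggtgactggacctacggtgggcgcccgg
Atg14 (chr14:47568385-47568684, minus strand): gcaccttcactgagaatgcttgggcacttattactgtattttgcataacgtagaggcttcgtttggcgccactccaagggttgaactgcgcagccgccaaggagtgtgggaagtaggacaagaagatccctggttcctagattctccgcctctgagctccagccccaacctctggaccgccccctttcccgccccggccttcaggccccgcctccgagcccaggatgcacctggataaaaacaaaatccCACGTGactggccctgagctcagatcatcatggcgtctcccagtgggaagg
Counting the start site as 0, the matches begin at positions -94 and -71 in Atg3, in Atg5 at -14, in Atg14 at -1 and in Atg7, not shown, at -132. The longer palindrome TCACGTGA, which contains CACGTG and is typical of TFEB targets, was found in Atg3 alone, at -72, and in 0.974% of all windows. The same windows were also searched for other motifs. A FOXO site was found in 0 of the 32 members, against 4.05% of the 27025 genes with a window. A heat shock element was found in 0 of the 32, against 0.662% of those genes. The core of the antioxidant response element, searched in the same way, is given below with Map1lc3b. Whether any motif goes with the direction of change was not tested. A match is a description of letters, and binding was not measured here.

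The 4 ATG4 proteases, which trim ATG8 proteins before conjugation and cut them off the membrane afterwards, showed no member that passed. Atg4b, the protease known to process most LC3, was at 71.7 ± 2.97 and 69.8 ± 4.81 CPM (log2 fold change -0.039, 95% interval -0.16 to 0.084). For Atg4a and Atg4d the intervals were -0.086 to 0.33 and -0.11 to 0.34. Atg4c was at 27.8 ± 0.962 and 24.9 ± 0.606 CPM with groups that did not overlap (adjusted p = 0.085), and it passed as lower after the GC and length trend was removed (0.011), over a range of 0.011 to 0.24. Atg4a matches Atg4a-ps at 99.3% identity over all of the shorter transcript, and Atg4d shares 1405 exon bases with Kri1 on the opposite strand, so the counts of both are uncertain.

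Of the 5 ATG8 genes, 4 fell and Gabarapl2 did not pass. Gabarapl1, of the GABARAP branch that serves late steps of autophagosome formation, was at 69.2, 74.8 and 74.5 CPM in the I/R libraries and 34.3, 39.6 and 34.1 CPM with chemerin-9. The groups were far apart, and Gabarapl1 fell from 72.8 ± 3.16 to 36.0 ± 3.13 CPM (-1.01 on the log2 scale, SE 0.066, adjusted p = 1.2e-08; chromosome 6, 129533160 to 129542346, plus strand, GRCm38, ENSMUSG00000030161). It shares 28.3% of its exon length with 1700101I11Rik on the opposite strand, which has no row in the count table. Gabarap, the founding member of that branch, was at 173, 173 and 177 CPM in the I/R libraries and 132, 131 and 135 CPM with chemerin-9 and fell by 0.39 (standard error 0.037, adjusted p = 5.1e-07). The libraries of each group were close together and the groups did not overlap. Gabarapl2, also called GATE-16, was at 51.0, 45.2 and 47.8 CPM in the I/R libraries and 48.9, 50.9 and 51.1 CPM with chemerin-9, which overlap (log2 fold change 0.069, 95% interval -0.061 to 0.20, adjusted p = 0.37). Reads of Gabarapl2 may be split with the processed pseudogenes Gm3724, Gm5829 and Gm6051, which match it at 96.6% to 99.4% identity and had at most 27 counts where they have a row.

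In the LC3 branch, Map1lc3b, the gene of the usual marker protein of autophagosomes, was at 126, 131 and 129 CPM in the I/R libraries and 101, 102 and 94.4 CPM with chemerin-9. It fell from 129 ± 2.51 to 99.1 ± 4.06 CPM (-0.38 on the log2 scale, SE 0.044, adjusted p = 3.9e-06; chromosome 8, 121590361 to 121598760, plus strand, GRCm38, ENSMUSG00000031812) with separate groups. Map1lc3a held 21.1, 21.3 and 29.4 CPM in the I/R libraries and 12.5, 16.5 and 15.8 CPM with chemerin-9. I/R replicate 3 stood above the other I/R libraries, and the fall of 0.68 on the log2 scale (standard error 0.14, adjusted p = 6.7e-04) was 0.50 without it. The promoter window of Map1lc3b is shown because it holds TGACNNNGC, the core of the antioxidant response element that NRF2, a factor of the study's title, is known to bind. The match, in capitals, begins at position 4 after the start site.
Map1lc3b (chr8:121590188-121590487, plus strand): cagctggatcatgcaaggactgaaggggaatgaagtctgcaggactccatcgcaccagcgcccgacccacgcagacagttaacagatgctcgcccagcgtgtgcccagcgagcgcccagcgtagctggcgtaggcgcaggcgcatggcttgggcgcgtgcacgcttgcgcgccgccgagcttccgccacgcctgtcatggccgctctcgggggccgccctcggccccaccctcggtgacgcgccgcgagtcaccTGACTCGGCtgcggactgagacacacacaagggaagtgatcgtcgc
Those letters were found on either strand in 4 of the 32 members (Atg13, Map1lc3b, Tax1bp1 and Ulk2), or 12.5%. They were found in 12.4% of all windows and for 14.0% of the 27025 genes with one.

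Per kilobase of the principal transcript, the 5 ATG8 genes together held 266 to 278 CPM in the I/R libraries and 197 to 204 CPM with chemerin-9. Gabarap made up 47.1% to 48.3% of that sum in the I/R libraries and 47.5% to 49.8% in the treated ones, which overlap. The share of Gabarapl1 was 14.3% to 15.4% in the I/R libraries and 9.35% to 10.7% in the treated ones, and that of Gabarapl2 10.1% to 11.5% and 14.8% to 15.2%. Gabarapl1 was thus above Gabarapl2 in every I/R library and below it in every treated library. Map1lc3b had 18.4% to 19.4% and 18.6% to 20.2%, and Map1lc3a 7.13% to 9.53% and 5.73% to 7.27%. Shares of Map1lc3b depend on the length used: per union of all annotated exons it was 8.79% to 9.40% among the I/R libraries.

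**Figure D2:**
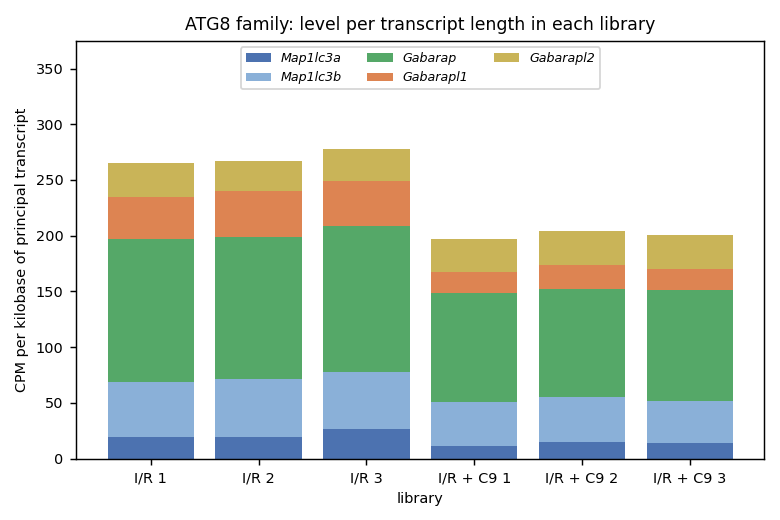
Level of the 5 ATG8 genes in each of the 6 libraries, stacked, in CPM per kilobase of the principal transcript. The sums lie at 266 to 278 in the I/R libraries and at 197 to 204 with chemerin-9, and the Gabarapl1 part is smaller in each treated library.

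Of the 5 cargo receptors, 4 fell and Tax1bp1 alone went up. Sqstm1, which encodes p62, a receptor for ubiquitinated cargo that also binds KEAP1, had the highest level per kilobase of all members and was at 464, 467 and 499 CPM in the I/R libraries and 333, 348 and 330.1 CPM with chemerin-9. Every I/R library was far above every treated library, and Sqstm1 fell from 476 ± 19.4 to 337 ± 9.56 CPM (-0.50 on the log2 scale, SE 0.037, adjusted p = 4.5e-08; chromosome 11, 50199366 to 50210827, minus strand, GRCm38, ENSMUSG00000015837). It shares 17.3% of its exon length with Mrnip on the opposite strand, which had 696 counts against 33685. Nbr1, a receptor that acts with p62, was at 264, 264 and 245 CPM in the I/R libraries and 189, 187 and 188 CPM with chemerin-9 and fell by 0.45 (standard error 0.039, adjusted p = 1.8e-07). Its treated libraries were nearly equal.

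Calcoco1, known as a receptor for endoplasmic reticulum and Golgi membranes, fell by about as much as Gabarapl1. Which of the pair had the lower log2 fold change depended on the setting: without I/R replicate 1 it was -0.99 for Calcoco1 and -1.05 for Gabarapl1. Calcoco1 was at 117, 101 and 111 CPM in the I/R libraries and 49.9, 55.3 and 55.2 CPM with chemerin-9, and fell from 109.6 ± 8.11 to 53.5 ± 3.06 CPM (-1.03 on the log2 scale, SE 0.061, adjusted p = 4.5e-09; chromosome 15, 102706777 to 102722178, minus strand, GRCm38, ENSMUSG00000023055). Every treated library was far below every I/R library. Optn, the receptor optineurin of damaged mitochondria and bacteria, held 56.4, 59.3 and 62.1 CPM in the I/R libraries and 50.8, 46.0 and 46.9 CPM with chemerin-9 and fell by 0.31 (adjusted p = 5.1e-04). Tax1bp1, a receptor that recruits the ULK1 complex to cargo, went from 238 ± 6.91 to 253 ± 4.36 CPM (0.094 on the log2 scale, adjusted p = 0.040). The Tax1bp1 call did not hold in DESeq2 (adjusted p = 0.079), with no filter on low counts (0.075) and without I/R replicate 1 (0.059), I/R replicate 2 (0.053), I/R replicate 3 (0.11), chemerin-9 replicate 1 (0.14), chemerin-9 replicate 2 (0.080) or chemerin-9 replicate 3 (0.062). After removing the GC and length trend its sign turned (log2 fold change -0.025, adjusted p = 0.52), over a range of adjusted p from 0.021 to 0.52.

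**Figure D3:**
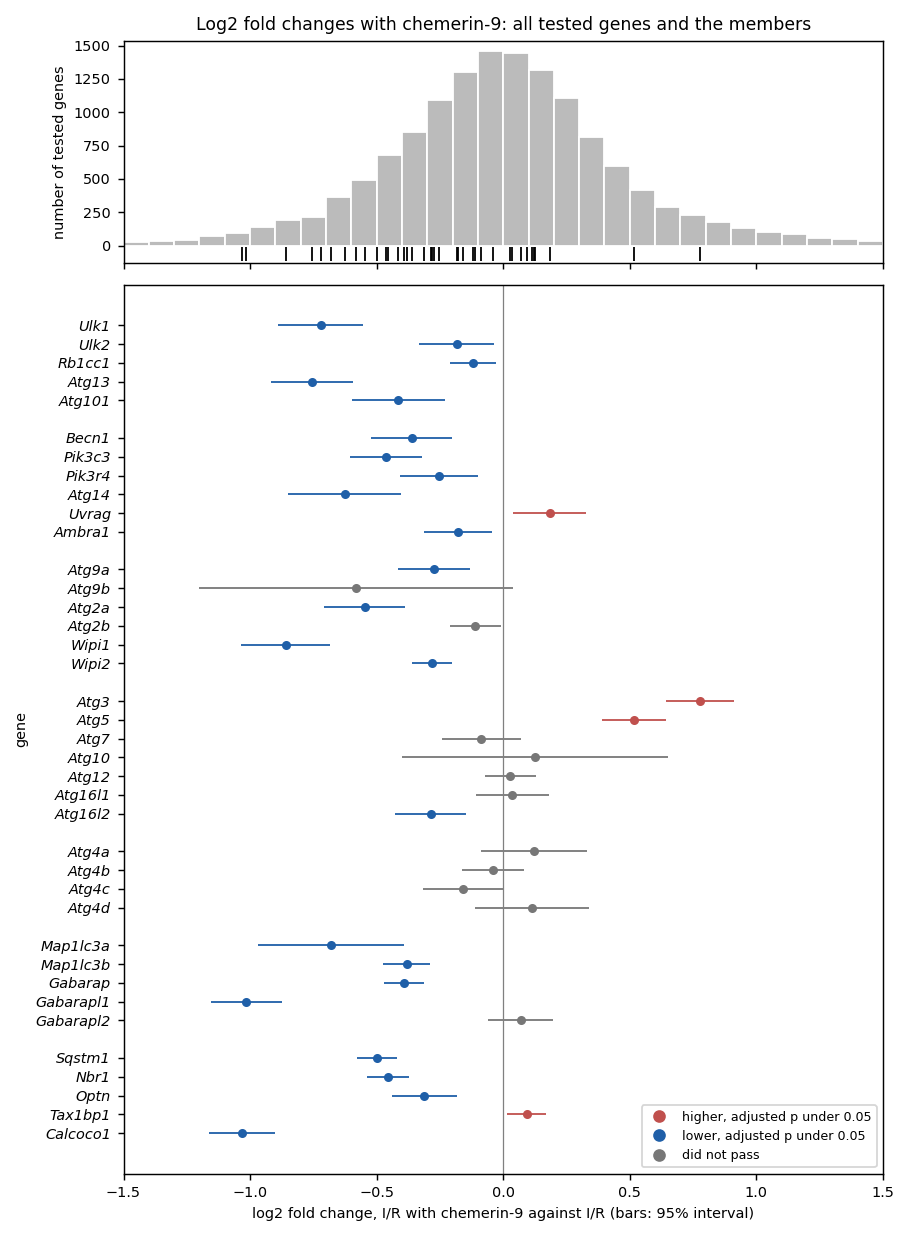
Upper panel: histogram of the log2 fold changes, chemerin-9 against I/R, of the tested genes between -1.5 and 1.5, with a tick for each of the 38 members. Lower panel: the log2 fold change of each member with its 95% interval, in the order of the roles, where 23 genes passed as lower, 4 as higher and 11 did not pass.

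Related members were also set against each other, as a description. In each library the log2 ratio of counts was taken for 7 pairs, 6 of them paralogues and one a pair of successive enzymes, chosen with the values known. The Ulk1 to Ulk2 ratio was -0.14 ± 0.030 in I/R and -0.68 ± 0.028 with chemerin-9 (SD, n = 3 each), a difference of -0.54. For Wipi1 to Wipi2 the difference was -0.58, for Atg2a to Atg2b -0.44, for Atg16l2 to Atg16l1 -0.32 and for Gabarapl1 to Gabarapl2 -1.09. The Atg3 to Atg7 ratio went from 0.087 ± 0.12 to 0.95 ± 0.021, a difference of 0.86. In these 6 pairs the groups did not overlap, and in Map1lc3a to Map1lc3b they did (-2.45 ± 0.27 and -2.74 ± 0.23). How often other pairs of genes would be apart in this way was not tested.

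**Figure D4:**
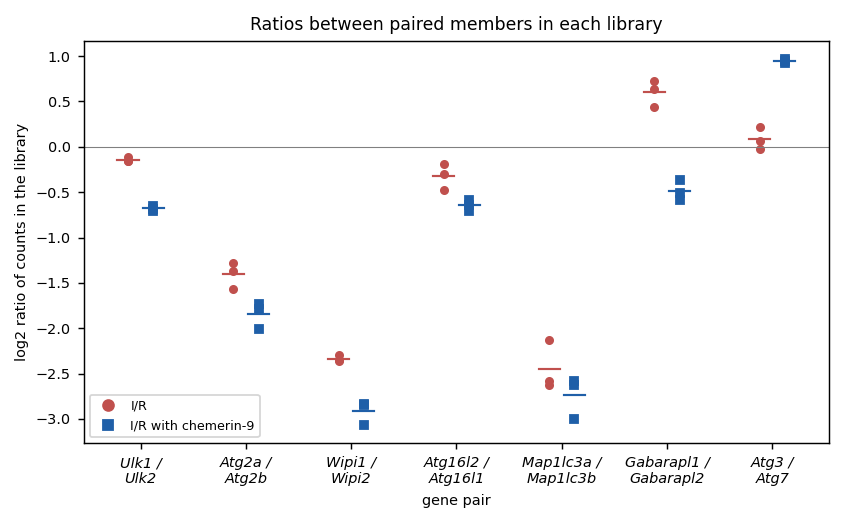
Log2 ratio of the counts of 7 gene pairs in each library, circles for I/R and squares for I/R with chemerin-9, with a line at each group mean. The groups are apart in 6 pairs and overlap for Map1lc3a to Map1lc3b.

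Per kilobase of principal transcript, the members spanned a wide range in I/R, from 0.522 CPM for Atg9b to 234 CPM for Sqstm1, with a median of 14.8. Sqstm1 was followed by Gabarap (129), Wipi2 (98.9), Tax1bp1 (72.3) and Nbr1 (53.8). The places of Wipi2 and Tax1bp1 depend on the length used. Wipi2 has 1959 bases in the principal transcript and 10543 in the union of exons, and Tax1bp1 3285 and 9991. The kinases and scaffolds were lower, with Ulk1 at 10.2 and 6.17, Becn1 at 17.9 and 14.0 and Atg14 at 4.72 and 3.06 CPM per kilobase in I/R and with chemerin-9. Atg3 went from 14.5 to 24.8 on this scale, passing Becn1. The GC content of the longest transcript had a median of 51.8% over the 23 genes that fell (39.1% to 63.1%), 45.3% over the 11 that did not pass and 42.4% over the 4 that rose. Atg3, Tax1bp1 and Rb1cc1 are among the members lowest in GC. With the GC and length trend removed, 25 members were lower and 2 higher, against 27.8% and 24.6% of the 13651 genes tested that way. The members lie on 18 chromosomes, and the nearest pair, Atg13 and Ambra1, is 19.6 kilobases apart on chromosome 2.

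Beyond the members, 74 other genes of the pathway were tested from 4 lists, and 32 fell and 13 rose, where 26.1% and 25.6% of all tested genes did. Their median log2 fold change was -0.11. Among other receptors, 10 of 19 fell and 3 rose. Retreg2, a receptor for endoplasmic reticulum, fell from 79.0 ± 2.56 to 45.1 ± 2.08 CPM (adjusted p = 1.6e-08), Retreg3 of the same family fell by 0.34 on the log2 scale and the mitochondrial receptor gene Bnip3l by 0.26. Ncoa4, the receptor that brings ferritin to the autophagosome, rose from 81.8 ± 4.33 to 103 ± 4.46 CPM (0.34 on the log2 scale, adjusted p = 6.2e-05).

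Among early-step regulators, 8 of 19 fell and 4 rose. Zfyve1, which encodes the omegasome marker DFCP1, fell from 58.8 ± 3.83 to 37.5 ± 1.09 CPM, Trp53inp1 fell by 0.63 and Wdr45, the WIPI4 gene, by 1.03 on the log2 scale. Bcl2, which binds and restrains Beclin 1, rose from 23.5 ± 1.39 to 38.3 ± 1.85 CPM (0.71 on the log2 scale, adjusted p = 1.7e-06). Among 20 genes of fusion with the lysosome, 6 fell and 4 rose, which is near the shares over all tested genes (26.1% and 25.6%). The tethering genes Vps11 and Vps18 fell by 0.91 and 0.66. The fusion SNARE genes Stx17 and Ykt6 rose by 0.49 and 0.27, with Stx17 going from 41.2 ± 1.60 to 58.1 ± 0.618 CPM. Neither kind of gene moved as a whole. Of other SNARE genes, named after their values were seen, Snap29 fell by 0.31 (adjusted p = 0.0034), and Vamp8 and Stx7 did not pass. Of other tethering genes, Vps39 fell by 0.28, and Vps16, Vps33a and Vps41 did not pass.

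Among 16 genes of TFEB-type and FOXO control, 8 fell and 2 rose. Foxo4 fell from 60.9 ± 2.93 to 35.2 ± 0.849 CPM (adjusted p = 5.4e-08), Foxo3 by 0.32, the TFEB relative Tfe3 by 0.26 and Mcoln1, the calcium channel of the lysosome, by 0.50 on the log2 scale. Tfeb itself, named after its values were seen, was at 11.2 ± 1.51 and 11.1 ± 1.08 CPM and did not pass (95% interval -0.29 to 0.26). Foxo1 and Mitf, named in the same way, did not pass either. Their log2 fold changes were 0.11 (adjusted p = 0.31) and -0.17 (adjusted p = 0.13). The 16 genes named by the rule from these 4 lists kept their calls in each of the 17 alternatives run. With the GC and length trend removed, 6 of the wider genes were higher in place of 13.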

How the data were processed

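RNA-seq counts were analysed for 6 libraries. Per the submitters' processing notes, reads were aligned with HISAT2 to mm10 and counted with HTSeq, and DESeq 1.18.1 was named. The sources used here do not give the strand setting of the counting. The authors' table holds a raw count per symbol and library, not normalized, as its whole numbers with different totals show. The authors also deposited for each gene a log2 fold change, a ratio, a p-value and an FDR. Its coordinates match GRCm38, with the same start as GENCODE M21 for 97.5% of genes. Of 25216 rows, 27 repeated a symbol and were dropped. Titles gave the group and replicate number. In the treated samples the field for treatment counts up from C9 to C11 although each title says C9, and their descriptions name libraries S, not IC. The batch field holds 6 consecutive dates, 1 per library. Whether these mark real batches is not known, and if they do, batch and group cannot be told apart.

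Counts were tested with edgeR 4.0.16 (R 4.3.3): TMM, filterByExpr, a quasi-likelihood fit on group, and Benjamini-Hochberg adjustment over 14184 genes at 0.05. The biological coefficient of variation was 5.18%. Standard errors are the log2 fold change over the square root of F, and 95% intervals use the fit's degrees of freedom. Members and lists were chosen with earlier results of these data known. Each library was given for members past 0.05 with at least a 1.2-fold change and for 7 core genes whatever their test. In each wider list up to 4 genes of smallest p were named. Alternatives were RLE and upper quartile factors, DESeq2 1.42.0, limma-voom (limma 3.58.1), a robust prior, other filters, the replicate block, each library left out, a threshold of 0.1, mitochondrial and 18S genes left out, and, added after seeing the data, removal of GC and length trends. Copies were searched with BLAST 2.17.0 at 95% identity over 50% of the shorter transcript, and 3 of 38 members had one. The main test was tested on simulated data.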

Additional observations from a re-analysis of the deposited data

How the results depend on the processing

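Of the 27 members called, 22 kept their call and direction in each of the 17 alternatives, 20 lower and 2 higher (Atg3 and Atg5). The calls of Ulk2, Rb1cc1, Uvrag, Ambra1 and Tax1bp1 changed with at least 1 alternative. The number of members higher was 2 in place of 4 with DESeq2, 2 with no filter, 2 after removing the GC and length trend, and 2 to 3 without each library in turn. Leaving out replicate 1 or replicate 2 of either group gave 2. The number lower stayed between 20 and 25. Wider genes higher went from 13 to 6 after that removal, and the cause was not tested. Signs turned for Atg12 (-0.064), Atg16l1 (-0.030) and Tax1bp1 (-0.025) with that trend removed, and without 1 library for Atg10 (-0.0084 to 0.30 over the libraries left out) and Atg16l1 (-0.013 to 0.094). None of these passed there. The other scalings moved the median of all genes by under 0.1 on the log2 scale. The replicate number as a block gave 23 lower and 4 higher, the same as without it. Same-numbered libraries correlated in their deviations at 0.10, -0.052 and 0.042, so the numbers were not read as pairs. Depth limits Atg9b and Atg10, at about 1 to 3 CPM.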

Other observations

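In the authors' deposited table, 21 of the 38 members were lower and 2 higher at an FDR under 0.05. The share over all genes of that table was not counted. DESeq2 as run here also gave 21 members lower and 2 higher. Of the 16005 genes it tested, 3034 were lower and 3009 higher. The authors' deposited table gave log2 fold changes of -1.04 for Calcoco1, -1.02 for Gabarapl1 and 0.77 for Atg3.

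I/R replicate 3 held 56.4 CPM of Atg101 against 45.9 and 45.8, and 29.4 CPM of Map1lc3a against 21.1 and 21.3. It held 48.1 CPM of Ulk1 against 56.7 and 54.4, where it was the lowest of the group.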
